A study of Mus musculus with 15 samples.

Results

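Transcript levels of 9 transcription factors of the skeletal muscle programme were followed in the tibialis anterior, a fast muscle at the front of the lower hindlimb. The 9 genes were chosen by name. They are the myogenic regulatory factors Myod1, Myog, Myf5 and Myf6, the satellite cell factor Pax7, the sine oculis homeodomain factor Six4, and the MEF2 factors Mef2a, Mef2c and Mef2d. They are 9 of the 42396 gene entries in each deposited table, and all 9 passed the filter on low counts in every comparison.

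Adult C57BL/6 mice had been given AAV6, an adeno-associated virus vector, in the hindlimb, and RNA was sequenced 2 months after the injection. The groups were male C-del (4 libraries), male mock (4 libraries), female C-del (4 libraries) and female mock (3 libraries). C-del muscles overexpressed a form of LSMEM2 named C-del, and mock muscles expressed the green fluorescent protein EGFP from the same kind of vector. The sources used here do not give what C-del stands for, the promoter driving the transgene, the share of fibres reached or the exact age. Males and females come in separate tables, so a difference between sexes and one between tables cannot be told apart. The labels do not tie the libraries to different mice. The p-values therefore measure the spread between these libraries alone, and that spread may be technical.

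Library totals spanned 15304503 to 17744015 in male C-del, 14297620 to 15454510 in male mock, 10239329 to 12054871 in female C-del and 9285145 to 10790101 in female mock libraries. Levels are given as CPM, counts scaled to a common library total with TMM factors computed within each sex. Lsmem2 itself stood at 481, 2355, 1865 and 1287 CPM in male C-del libraries 1 to 4, against 28.5 to 29.7 CPM in male mock libraries. In females it stood at 1361 to 2705 CPM in C-del libraries, against 30.0 to 32.8 CPM in mock libraries. The extraction text speaks of hearts where the labels name skeletal muscle: 6 skeletal muscle markers summed to 92985 CPM or more in every library, and 7 heart markers to 7.86 CPM or less. Several libraries stood apart in genes of other cells. The 11 macrophage markers summed to 59.9 to 127 CPM in female C-del libraries, against 98.6, 690 and 316 CPM in female mock libraries 1, 2 and 3. The 10 lymphocyte markers reached 4729 CPM in female mock library 2 alone. In males, macrophage markers summed to 202 and 221 CPM in C-del libraries 1 and 2, 66.6 and 84.8 CPM in C-del libraries 3 and 4, and 81.4 to 99.7 CPM in mock libraries. The 9 pericyte and smooth muscle markers summed to 1169 to 1196 CPM in male C-del libraries, against 1336 to 1401 CPM in male mock libraries. By the edgeR test used below (adjusted p under 0.05), 7 of the 9 fell, where 5.37% of all genes did. The 7 tenocyte markers summed to 193 to 329 CPM in male C-del libraries, against 350, 319, 478 and 306 CPM in male mock libraries 1 to 4. Of the 7, 1 fell by edgeR and 4 by DESeq2, and 5 were lower at an unadjusted p under 0.05. In males 26% of all genes had such a p in either direction. The 8 endothelial markers summed to 489.8 to 534 CPM in female C-del libraries, against 397 to 427 CPM in female mock libraries. Of the 8, 5 had an unadjusted p under 0.05, all higher, where 11.9% of all genes had such a p in either direction. By edgeR 0 of the 8 passed. The 9 fibro-adipogenic markers summed to 1549 to 2004 CPM in male C-del libraries. In male mock libraries 1 to 4 they summed to 1623, 1665, 2827 and 2391 CPM. The part of these cells in the results below was not tested. In whole muscle, fewer cells of a type and less RNA per cell cannot be told apart.

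Myod1, Myf5, Myog and Myf6 (MRF4) are basic helix-loop-helix proteins that pair with E proteins, bind the E-box CANNTG and together drive muscle determination and differentiation. MEF2 proteins and Six4, which binds the MEF3 motif with EYA partners, act beside them on muscle promoters, and Myog is a classic gene on which all of them meet. In adult muscle Myf6 is the most abundant of the 4 myogenic factors, Myog is low and is known to rise after denervation, and Pax7 and Myf5 mark satellite cells, the stem cells beside the fibres.

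Promoter sequences are printed for 3 of the 9 genes: Myog, where motifs of the other families lie together, Mef2a, which fell in males, and Six4. RefSeq windows of 300 bases (250 before and 50 after an annotated start, build GRCm38.p6) matched 7 of the 9 genes by symbol. The windows are Myog at chr1:134289754-134290053 on the plus strand, Mef2a at chr7:67372809-67373108 on the minus strand and Six4 at chr12:73113196-73113495 on the minus strand, each printed 5′ to 3′ with motif matches in capitals.
Myog: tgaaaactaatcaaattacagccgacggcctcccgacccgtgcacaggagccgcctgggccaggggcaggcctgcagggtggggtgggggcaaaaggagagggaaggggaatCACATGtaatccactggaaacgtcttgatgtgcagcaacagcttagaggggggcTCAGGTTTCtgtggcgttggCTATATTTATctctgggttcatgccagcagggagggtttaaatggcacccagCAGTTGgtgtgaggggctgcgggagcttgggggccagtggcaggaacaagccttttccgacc
Mef2a: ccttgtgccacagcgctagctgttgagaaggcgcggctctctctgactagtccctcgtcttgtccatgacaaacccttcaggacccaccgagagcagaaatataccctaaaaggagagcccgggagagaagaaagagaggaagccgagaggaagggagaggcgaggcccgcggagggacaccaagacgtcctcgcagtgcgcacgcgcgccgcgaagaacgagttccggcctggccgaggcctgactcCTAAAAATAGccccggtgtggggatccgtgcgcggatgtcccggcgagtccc
Six4: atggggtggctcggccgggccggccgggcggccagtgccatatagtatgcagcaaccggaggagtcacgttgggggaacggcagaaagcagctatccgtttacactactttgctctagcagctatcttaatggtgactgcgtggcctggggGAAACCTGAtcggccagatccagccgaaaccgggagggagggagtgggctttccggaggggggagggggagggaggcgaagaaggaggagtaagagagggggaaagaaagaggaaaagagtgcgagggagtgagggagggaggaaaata
In the Myog window the capitals mark, from 5′ to 3′, the E-box CACATG at position -138 from the start, the MEF3 motif TCAGGTTTC at -84, a MEF2-like run of 10 bases at -64 and the E-box CAGTTG at -12. In the Mef2a window they mark a match to the MEF2 consensus, CTAAAAATAG, at -2. In the Six4 window they mark GAAACCTGA, the MEF3 motif read on the other strand, at -99. Six4 has another window, at chr12:73113376-73113675, which is not printed and held no match to the motifs searched. The Mef2a window and both Six4 windows lie inside the annotated genes, whose 5′ ends are at 67376456 and 73114031. Positions in them therefore count from a start within the gene, whereas the Myog window sits at the gene's annotated start. Searched on both strands, CANNTG was found in 72.3% of all 32851 promoter windows, CAGNTG, which is part of it, in 51.4%, the MEF2 consensus in 3.19%, TCAGGTTTC in 0.429% and the exact MEF2-like run of Myog in 0.0731%. The motifs were picked after the windows had been read, and a match describes letters, not a bound site.

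**Figure D1:**
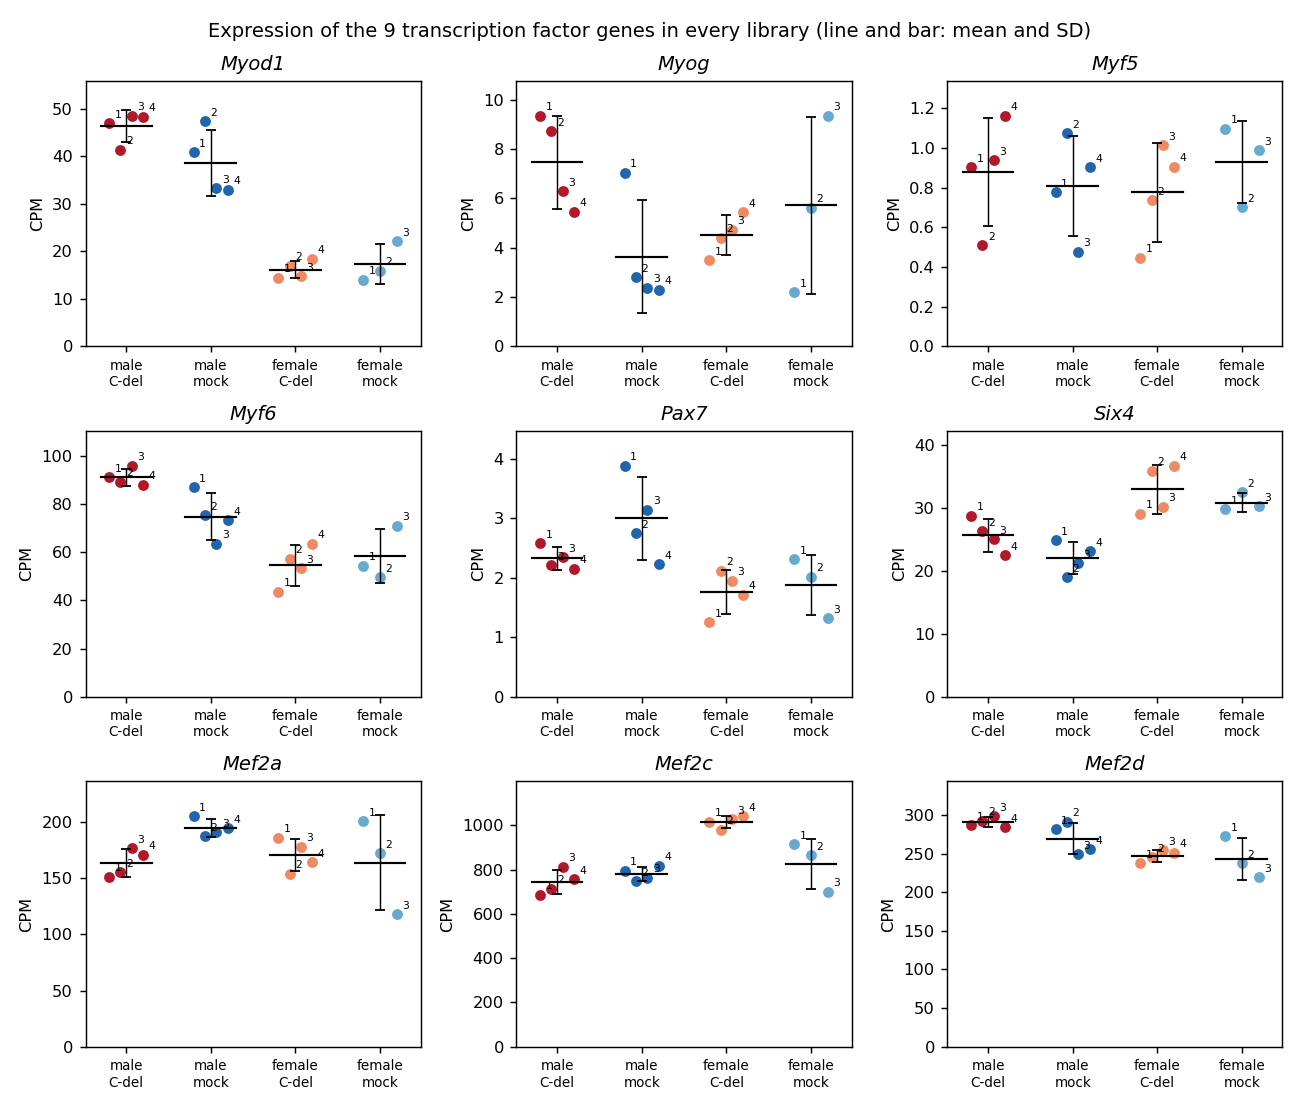
CPM of each of the 9 genes in every library (numbers are library numbers), with C-del left of mock for each sex and a line and bar for the mean and SD. Myf6 and Mef2a are the 2 genes whose male C-del and male mock libraries do not overlap, and the 3 female mock libraries spread widely in Myog and Mef2a.

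In males, Myf6 rose and Mef2a fell in C-del muscle, both by modest amounts, while the other 7 factors did not pass the test. A gene was called at a Benjamini-Hochberg adjusted p under 0.05 in edgeR's quasi-likelihood test over 14543 genes, of which 11.2% were called, 5.8% as higher and 5.37% as lower. The 2 calls among 9 genes were 1 higher and 1 lower. Before adjustment 5 of the 9 had a p under 0.05, where 26% of all genes did, and DESeq2 called 2, where it called 10.1% of all genes. The C-del and mock libraries did not overlap in 2 of the 9, as in 17.6% of all genes. The median log2 fold change of the 9 genes was 0.11, against -0.0047 over all genes tested.

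Myf6 (chromosome 10, 107492848 to 107494723, minus strand, with Myf5 lying 5920 bases away), the myogenic factor of mature fibres, stood at 91.3, 89.4, 96.0 and 88.1 CPM in male C-del libraries, against 87.0, 75.5, 63.6 and 73.3 CPM in male mock libraries. All 4 C-del libraries lay above all 4 mock libraries, a separation seen in the same direction in 9.05% of all genes tested in males. This gave a log2 fold change of 0.28 ± 0.076 (SE), or 1.22-fold, with an adjusted p of 0.0290, and the exact two-sided permutation test gave 0.0286, the smallest p that 4 against 4 libraries allow. The gap between the groups was narrow, at 88.1 CPM in the lowest C-del library and 87.0 CPM in mock library 1. The call held in 6 of 15 alternatives (adjusted p 0.00404 to 0.279) and in 2 of the 8 fits with 1 library left out. It was lost without mock library 2, 3 or 4 and without C-del library 1, 2 or 3. Mock library 3, where Myf6 was lowest, also had the highest tenocyte sum, and without it the log2 fold change was 0.21 (adjusted p = 0.0626).

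Myod1, the determination factor that in adult muscle is richest in fast fibres, stood at 47.0, 41.4, 48.6 and 48.3 CPM in male C-del libraries, against 40.9, 47.4, 33.3 and 33.0 CPM in male mock libraries. Mock library 2 lay within the C-del range, and mock libraries 3 and 4 were the low ones. Without both of them the log2 fold change was 0.070 (adjusted p = 0.721). The full value of 0.26 ± 0.11 did not pass (adjusted p = 0.169, exact p = 0.0857). Without mock library 2 it was 0.37 with an adjusted p of 0.0173.

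Myog, the factor of terminal differentiation, was low in level and had the largest fold among the 9 genes in males. It stood at 9.35, 8.73, 6.30 and 5.47 CPM in male C-del libraries, against 7.05, 2.82, 2.39 and 2.29 CPM in male mock libraries, from 94 to 154 counts against 33 to 109 counts. Mock library 1 lay inside the C-del range, while the other 3 mock libraries lay below every C-del library. The log2 fold change was 1.02 ± 0.39, or 2.03-fold, and did not pass (adjusted p = 0.154, exact p = 0.0857). Without mock library 1 it was 1.58 with an adjusted p of 0.00074, so 1 library decides the call.

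Myf5, a factor of satellite cells and early myoblasts, was near the limit of detection at 0.903, 0.510, 0.938 and 1.16 CPM in male C-del libraries, against 0.776, 1.07, 0.478 and 0.903 CPM in male mock libraries. The groups overlapped fully, and no library rested on more than 20 counts. Its log2 fold change of 0.11 ± 0.31 did not pass (adjusted p = 0.859). The 95% interval was wide, at -0.56 to 0.78 on the log2 scale, so a change in either direction is not excluded.

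Pax7, the paired-box factor that defines satellite cells, stood at 2.58, 2.21, 2.34 and 2.15 CPM in male C-del libraries, against 3.88, 2.75, 3.14 and 2.22 CPM in male mock libraries. Mock libraries 1, 2 and 3 lay above every C-del library, and mock library 4 lay among them. The log2 fold change of -0.37 ± 0.18 did not pass (adjusted p = 0.207, exact p = 0.0857), and the values rest on 35 to 40 counts against 32 to 60 counts.

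Six4, the homeodomain factor, stood at 28.8, 26.3, 24.99 and 22.4 CPM in male C-del libraries, against 24.8, 18.98, 21.2 and 23.1 CPM in male mock libraries. The groups overlapped, with C-del library 4 below mock libraries 1 and 4. The log2 fold change of 0.22 ± 0.090 did not pass (adjusted p = 0.144, exact p = 0.114).

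Mef2a (chromosome 7, 67231163 to 67376456, minus strand), one of the MADS-box factors of differentiated muscle, stood at 151, 156, 177 and 171 CPM in male C-del libraries, against 205.5, 187, 191 and 194.5 CPM in male mock libraries. Every C-del library lay below every mock library, a separation seen in the same direction in 8.51% of all genes tested in males. Mef2a thus had a log2 fold change of -0.25 ± 0.054, or 1.19-fold lower, with an adjusted p of 0.00916 and an exact p of 0.0286. Leaving out any 1 of the 8 libraries kept it between -0.29 and -0.21 with an adjusted p under the threshold. Among the male C-del libraries, Lsmem2 was lowest in library 1 and highest in library 2. Libraries 1 and 2 were the lower of the C-del libraries in Mef2a and also the ones with more macrophage marker RNA. Without them the log2 fold change was -0.16 and no longer passed (adjusted p = 0.0698). Exons of Lysmd4, on the opposite strand, overlap those of Mef2a, and whether the counting used strand is not given in the sources used here; Lysmd4 did not pass (log2 fold change -0.17, adjusted p = 0.208).

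The other MEF2 genes did not pass in males. Mef2c, which is also essential in heart development, stood at 687, 714.5, 813 and 757 CPM in male C-del libraries, against 794, 746, 763 and 817 CPM in male mock libraries. C-del libraries 1 and 2 were the lowest of the 8 and the other 2 lay within the mock range, giving a log2 fold change of -0.071 ± 0.054 (adjusted p = 0.452). Mef2d, which is also expressed widely outside muscle, stood at 287, 292, 299 and 284 CPM in male C-del libraries, against 281, 291, 249 and 256 CPM in male mock libraries. Mock libraries 3 and 4 were the low ones, and the log2 fold change of 0.11 ± 0.052 did not pass (adjusted p = 0.206). Without those 2 libraries it was 0.020. Exons of 1700113A16Rik, on the opposite strand, overlap those of Mef2d. In males 1700113A16Rik did not pass (log2 fold change -0.13, adjusted p = 0.417). Its C-del libraries all lay below its mock libraries (exact p = 0.0286), as in 8.51% of all genes. The 3 MEF2 genes thus had log2 fold changes of -0.25, -0.071 and 0.11, whose differences from one another were not tested.

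**Figure D2:**
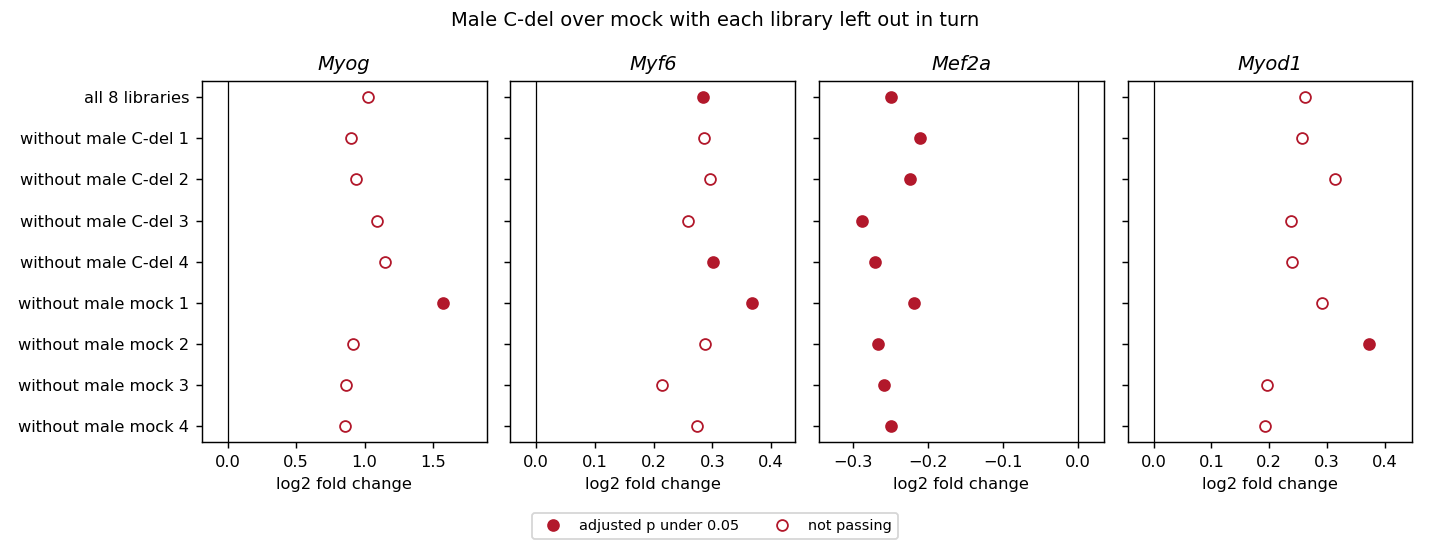
Log2 fold change of male C-del over male mock for Myog, Myf6, Mef2a and Myod1 with all 8 libraries and with each library left out in turn; filled points have an adjusted p under 0.05. Mef2a passed in all 8 reduced fits, Myf6 in 2 of them, Myog only without mock library 1 and Myod1 only without mock library 2.

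In females none of the 9 factors passed. Of 14220 genes tested, 0.0141% were called by edgeR, and among the 9 genes 1 had an unadjusted p under 0.05, where 11.9% of all genes did, and DESeq2, which called 2.99% of all genes, called 0 of the 9. C-del and mock libraries did not overlap in 1 of the 9, with C-del higher; 10.1% of all genes had no overlap, 5.71% with C-del higher and 4.39% with C-del lower. The median log2 fold change was -0.098, against -0.015 over all genes tested. Mock libraries 2 and 3 had more macrophage marker RNA than the other female libraries, so values without them are given beside the main ones. Lymphocyte markers summed to 102, 4729 and 34.4 CPM in mock libraries 1, 2 and 3, so library 1 was not the lowest in these. Values without libraries 2 and 3 rest on mock library 1 alone, whose spread is taken to be that of the C-del group.

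Mef2c came nearest. It stood at 1017, 979.7, 1027 and 1042 CPM in female C-del libraries, against 915, 865 and 700.4 CPM in female mock libraries. All 4 C-del libraries lay above all 3 mock libraries, and mock library 3 was the lowest. Mef2c had a log2 fold change of 0.30 ± 0.11, or 1.23-fold, with an adjusted p of 0.343 and an exact p of 0.0571, the smallest that 4 against 3 libraries allow. Without mock libraries 2 and 3 it was 0.15 (adjusted p = 0.643). The endothelial marker sums, higher in every female C-del library than in every female mock library, moved with Mef2c. So did the pericyte and smooth muscle marker sums, at 1063 to 1175 CPM in female C-del and 889 to 1027 CPM in female mock libraries. The part of either cell type in the Mef2c values was not tested.

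Mef2a stood at 186, 154, 178 and 164 CPM in female C-del libraries, against 201, 172 and 118 CPM in female mock libraries. The mock libraries spanned the whole C-del range, with library 1 above it and library 3 below it. Its log2 fold change was 0.058 ± 0.17 (95% interval -0.32 to 0.44, adjusted p = 0.912), and -0.23 without mock libraries 2 and 3 (adjusted p = 0.563). Mef2d stood at 237, 245.5, 254 and 251 CPM in female C-del libraries, against 272, 237 and 219.5 CPM in female mock libraries, with the C-del values inside the mock range (log2 fold change 0.025 ± 0.10, adjusted p = 0.943). Set against mock library 1 alone, Mef2d was at -0.14 (adjusted p = 0.681).

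Myog stood at 3.49, 4.41, 4.73 and 5.44 CPM in female C-del libraries, against 2.20, 5.62 and 9.35 CPM in female mock libraries. Here too the mock libraries lay on both sides of the C-del range. Its log2 fold change was -0.34 ± 0.39 (95% interval -1.23 to 0.54, adjusted p = 0.758). Without mock libraries 2 and 3 it was 1.04 (adjusted p = 0.390), so the sign in females depends on those libraries.

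Myf6 stood at 43.7, 57.4, 53.4 and 63.7 CPM in female C-del libraries, against 54.4, 49.7 and 71.1 CPM in female mock libraries, and Myod1 at 14.5, 17.01, 14.8 and 18.4 CPM in female C-del libraries against 14.05, 15.97 and 22.1 CPM in female mock libraries. Mock library 3 was the highest of the 7 in both genes. Neither passed, with log2 fold changes of -0.098 ± 0.16 for Myf6 (adjusted p = 0.833) and -0.10 ± 0.17 for Myod1 (adjusted p = 0.837). Without mock libraries 2 and 3 the values were 0.0034 for Myf6 (adjusted p = 0.9997) and 0.20 for Myod1 (adjusted p = 0.779). Six4 stood at 29.1, 35.9, 30.2 and 36.7 CPM in female C-del libraries, against 29.7, 32.5 and 30.3 CPM in female mock libraries. C-del libraries 2 and 4 lay above the mock range, library 1 just below it and library 3 inside it, and the log2 fold change of 0.095 ± 0.12 did not pass (adjusted p = 0.776), nor did the 0.15 without mock libraries 2 and 3 (adjusted p = 0.824).

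The satellite cell factors were low in females as well. Pax7 stood at 1.25, 2.12, 1.94 and 1.71 CPM in female C-del libraries, against 2.31, 2.02 and 1.32 CPM in female mock libraries (log2 fold change -0.10 ± 0.29, adjusted p = 0.909). Myf5 stood at 0.447, 0.736, 1.01 and 0.907 CPM in female C-del libraries against 1.10, 0.702 and 0.990 CPM in female mock libraries (log2 fold change -0.24 ± 0.37, adjusted p = 0.821), from 5 to 12 counts in C-del and 8 to 10 counts in mock libraries. The groups overlapped in both genes. Without mock libraries 2 and 3 the log2 fold change was -0.39 for Pax7 (adjusted p = 0.822) and -0.49 for Myf5 (adjusted p = 0.869).

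**Figure D3:**
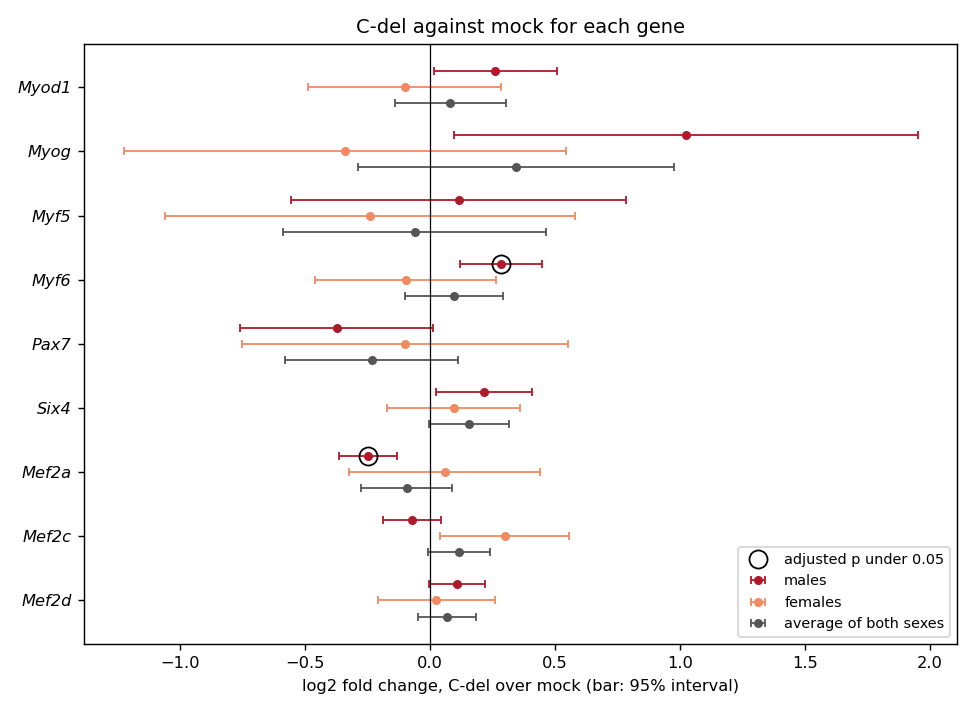
Log2 fold change of C-del over mock for each gene in males, in females and as the average of both sexes, with 95% intervals; circles mark an adjusted p under 0.05. Male Myf6 and male Mef2a are the 2 circled values, and the intervals of Myog and Myf5 are the widest.

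Neither the average over both sexes nor the difference between them gave a call among the 9 genes. In the fit of all 15 libraries, 4.41% of 15272 genes were called for the average, 2.42% as higher and 1.99% as lower, and 0.354% for the female minus male difference. For the average, 0 of the 9 had an unadjusted p under 0.05, where 19.7% of all genes did, and DESeq2 called 0 of the 9 and 6.8% of all genes. The average log2 fold change was 0.16 ± 0.076 for Six4 (adjusted p = 0.262), 0.12 ± 0.059 for Mef2c (adjusted p = 0.293) and -0.093 ± 0.086 for Mef2a (adjusted p = 0.590). Without female mock libraries 2 and 3, an alternative added after the data were seen, the average for Mef2a was -0.25 with an adjusted p of 0.0233.

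The male and female fold changes were set against each other directly. Of the 9 genes, 2 had an unadjusted p under 0.05 for this difference, where 16.9% of all genes did, and DESeq2 called 1, where it called 3.93% of all genes. Mef2c had a female minus male difference of 0.37 ± 0.12, built on a female log2 fold change of 0.30 and a male one of -0.071 (adjusted p = 0.121 by edgeR and 0.0490 by DESeq2). Myog had a difference of -1.37 ± 0.59 (adjusted p = 0.252), which was 0.0042 without female mock libraries 2 and 3. For Myf6 and Mef2a, called in males alone, the differences of -0.39 ± 0.19 (adjusted p = 0.300) and 0.30 ± 0.17 (adjusted p = 0.382) did not pass, so a difference between the sexes in either gene was not shown.

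**Figure D4:**
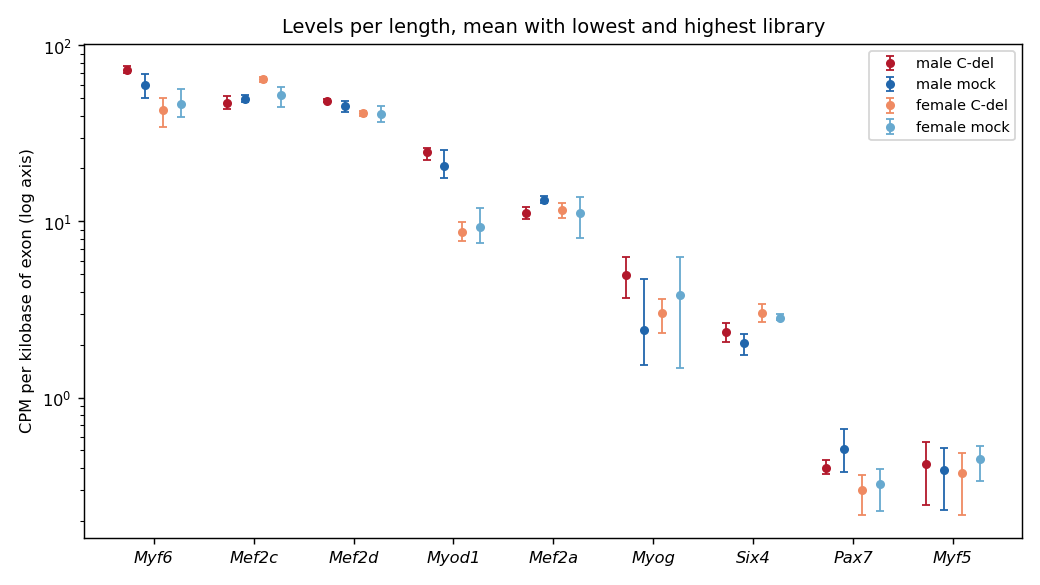
Level of each gene as CPM per kilobase of exon on a log axis, as the mean with the lowest and highest library, C-del left of mock for each sex. Myf6, Mef2c and Mef2d are the highest of the 9 and Pax7 and Myf5 the lowest in every group.

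Levels were compared between genes per kilobase of exon, using the union of all GENCODE exons. In male C-del libraries Myf6 led at 72.2 ± 2.73 CPM per kilobase (SD, n = 4), followed by Mef2d at 48.5 and Mef2c at 47.3, which overlapped in range. Myod1 followed at 24.9, Mef2a at 11.1, Myog at 4.99 and Six4 at 2.36, none of them overlapping the next, and Myf5 (0.422) and Pax7 (0.396) overlapped at the bottom. In male mock libraries Myf6 led at 59.3 ± 7.62 CPM per kilobase (SD, n = 4) but overlapped Mef2c at 49.7, which overlapped Mef2d at 45.0. Myog at 2.43 overlapped Six4 at 2.03 there.

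In females Mef2c came first, at 64.7 ± 1.70 CPM per kilobase in C-del libraries (SD, n = 4) and 52.6 ± 7.16 in mock libraries (SD, n = 3), with Myf6 next at 43.2 in C-del and 46.2 in mock libraries. Myf6 overlapped Mef2d in both female groups. The order depends on which transcripts give the length. With the exons of GENCODE's basic transcripts alone, Mef2c led in males as well, at 102 CPM per kilobase in C-del and 107 in mock libraries, and Mef2a stood above Myod1. In all 4 groups Myf6 was the highest of the 4 myogenic factors, followed by Myod1, Myog and Myf5. Myod1 levels differed between the tables, with a mean of 46.3 CPM in C-del and 38.6 CPM in mock muscle of males, and of 16.2 CPM in C-del and 17.4 CPM in mock muscle of females. No test was made of that difference.

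The factors' partners, regulators and target genes were read from 8 lists. The lists were chosen with earlier results of these data known, so a count above the share of all genes is no independent test of a list. Each count below stands against the share over all genes tested: in males 5.8% were called higher and 5.37% lower, in females 0.0141% were called by edgeR, 2.99% by DESeq2 and 11.9% at an unadjusted p under 0.05, and in the average 2.42% were called higher and 1.99% lower. Among 25 MEF2 target genes of muscle, 9 rose and 0 fell in male C-del muscle, against 5.8% and 5.37% of all genes, and the list's median log2 fold change was 0.17, against -0.0047 over all genes. Those with the smallest p were Nr4a1, an orphan nuclear receptor (0.88 ± 0.047, adjusted p = 7.99e-08), Jun, a subunit of AP-1 (0.59 ± 0.053, adjusted p = 1.15e-05), Mybpc1, the slow myosin-binding protein C (0.31 ± 0.044, adjusted p = 0.00042), and Xirp2, a protein of intercalated and myotendinous junctions (0.30 ± 0.056, adjusted p = 0.00381). Nr4a1 averaged 403 ± 17.9 CPM in C-del muscle of males, against 219 ± 9.55 CPM in mock muscle (SD, n = 4 each). Nr4a1 and Jun are also immediate-early genes, induced by many stimuli apart from MEF2. Without male mock library 3, or without male C-del library 2, 5 of the 25 rose, and in the fit of all 4 groups 3 did.

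In females 0 of the 25 passed by edgeR, although 7 had an unadjusted p under 0.05, all of them higher, and DESeq2 called 3, against 11.9% of all genes unadjusted and 2.99% with DESeq2. Nr4a1 averaged 280 ± 32.6 CPM in C-del muscle of females (SD, n = 4), against 133 ± 23.7 CPM in mock muscle (SD, n = 3), with a log2 fold change of 1.08 ± 0.15 and an adjusted p of 0.0686. In the average of both sexes 5 of the 25 rose and 0 fell, among them Nr4a1 (0.98 ± 0.078, adjusted p = 2.24e-06) and Jun (0.52 ± 0.086, adjusted p = 0.00242).

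Of the 31 tested corepressors, kinases and coactivators that act on MEF2, 3 rose and 3 fell in males, where 11.2% of all genes were called in either direction, with a median of -0.014. Sik1, a kinase that releases MEF2 by phosphorylating class II histone deacetylases, rose with a log2 fold change of 1.18 ± 0.17 (adjusted p = 0.00393), averaging 33.2 ± 5.47 CPM in C-del and 14.7 ± 3.23 CPM in mock libraries (SD, n = 4 each). Prkd2, a kinase of the same deacetylases (0.72 ± 0.13, adjusted p = 0.00323), and Nfatc2, a calcineurin-dependent factor (0.59 ± 0.097, adjusted p = 0.00140), also rose. Vgll2, a muscle cofactor of TEAD proteins that also binds MEF2, fell (-0.52 ± 0.046, adjusted p = 1.08e-05), averaging 85.5 ± 3.66 CPM in C-del and 123 ± 3.15 CPM in mock libraries (SD, n = 4 each). Ppp3ca, a calcineurin gene (-0.21 ± 0.049, adjusted p = 0.0125), and Nfatc1, a relative of Nfatc2 (-0.25 ± 0.067, adjusted p = 0.0275), fell in males too. In females 0 of the 31 passed by edgeR, 3 had an unadjusted p under 0.05, and DESeq2 called 1. Sik1 in females had a log2 fold change of 1.65 ± 0.21 (adjusted p = 0.0686), and it passed in the average at 1.42 ± 0.14 (adjusted p = 2.37e-05).

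Among 15 tested genes of the sine oculis, EYA, DACH and PAX network, 1 rose and 1 fell in males, a share near the 11.2% of all genes. Eya1, a coactivator and phosphatase that partners Six4, fell by 0.66 ± 0.080 on the log2 scale (adjusted p = 0.000135), averaging 28.5 ± 2.98 CPM in C-del and 45.0 ± 4.0 CPM in mock libraries (SD, n = 4 each), and it fell in the average of both sexes too (-0.45 ± 0.083, adjusted p = 0.00595). Female libraries overlapped in Eya1, at 17.8 to 24.3 CPM in C-del and 20.8 to 26.6 CPM in mock libraries. Pitx3, a homeodomain factor of differentiating myoblasts, rose in males (0.82 ± 0.18, adjusted p = 0.00939). Of 16 sine oculis target genes of fast fibres, 3 rose and 1 fell in males, against 5.8% and 5.37% of all genes, with a median of 0.0083. The fast IIX myosin gene Myh1 (0.39 ± 0.084, adjusted p = 0.0114), Aldoa and Slc2a4 rose, and the tropomyosin gene Tpm1 fell (-0.24 ± 0.066, adjusted p = 0.0297). The IIA myosin gene Myh2 rose in the average of both sexes (0.78 ± 0.11, adjusted p = 0.000759). Aldoa passed in 7 of 15 alternatives in males and Tpm1 in 6. Reads of the fast myosin genes, which lie in a family of near-identical copies, may be split by the counting, so Myh1 and Myh2 are less sure.

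Of 20 tested partners and inhibitors of the myogenic bHLH factors, 1 rose and 2 fell in males, also near the 11.2% of all genes, with a median of -0.17. Id1, which blocks E proteins, rose in males (0.60 ± 0.10, adjusted p = 0.00184) and in the average (0.77 ± 0.11, adjusted p = 0.000864). Heyl, a Notch target (-0.44 ± 0.079, adjusted p = 0.00261), and Zeb2, a repressor that binds E-box-like sites (-0.21 ± 0.062, adjusted p = 0.0400), fell. Zeb2 did not pass with DESeq2 (adjusted p = 0.0862). Id2, another blocker of E proteins, fell in the average of both sexes (-1.18 ± 0.28, adjusted p = 0.0270), a call kept in 9 of 20 alternatives. Over these the average ran from -1.39 to -0.29, and in males alone Id2 did not pass (-0.58 ± 0.23, adjusted p = 0.119). Female mock libraries spread from 3.18 to 16.8 CPM in Id2, against 2.54 to 3.49 CPM in female C-del libraries. Of 23 tested targets of myogenin and MyoD, 4 rose and 1 fell in males, against 5.8% and 5.37% of all genes, with a median of 0.021. Musk, the receptor kinase of the neuromuscular junction, averaged 34.8 ± 2.97 CPM in C-del muscle of males, against 22.0 ± 2.20 CPM in mock muscle (SD, n = 4 each; log2 fold change 0.66 ± 0.080, adjusted p = 0.000133), and Cdkn1a, the cell cycle inhibitor p21, also rose (0.80 ± 0.13, adjusted p = 0.00128). Both passed in the average of both sexes, with adjusted p-values of 0.00972 for Musk and 0.0125 for Cdkn1a. Female C-del and mock libraries overlapped in both genes. Musk spanned 7.07 to 12.0 CPM in C-del and 7.81 to 8.58 CPM in mock libraries, and Cdkn1a 17.1 to 28.7 CPM and 12.5 to 19.5 CPM. Cdh15 and Igdcc4, an immunoglobulin superfamily receptor (0.29 ± 0.062, adjusted p = 0.00788), were the other 2 that rose.

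Satellite cell genes moved both ways in males, with 3 of 19 higher and 4 lower, against 5.8% and 5.37% of all genes, and a median of -0.10. Cdh15, which encodes M-cadherin (0.39 ± 0.072, adjusted p = 0.00315), and Sdc4, a heparan sulphate proteoglycan (0.27 ± 0.063, adjusted p = 0.0136), rose, while Heyl and Notch3 (-0.25 ± 0.053, adjusted p = 0.00810) fell. Des, also counted among the MEF2 target genes that rose, was the other that rose (0.20 ± 0.051, adjusted p = 0.0228). It averaged 3272 CPM in C-del and 2857 CPM in mock muscle of males, and which cells it came from was not tested. The chemokine receptor gene Cxcr4 fell in males (-0.69 ± 0.19, adjusted p = 0.0303) and in the average (-1.17 ± 0.27, adjusted p = 0.0235). The male call held in 8 of 15 alternatives (adjusted p up to 0.394), and the average without female mock libraries 2 and 3 was -0.42 (adjusted p = 0.304). Cxcr4, also a gene of immune cells, averaged 2.30 ± 0.237 CPM in C-del muscle of females (SD, n = 4), against 7.16 ± 5.82 CPM in mock muscle (SD, n = 3). Female mock libraries 2 and 3 had the highest macrophage marker sums. Leaving out male mock library 2 or 3, or male C-del library 1 or 3, left 2 of the 19 lower. Notch3 is also a pericyte marker, and the pericyte and smooth muscle markers fell in the same libraries. Of 9 tested genes of regeneration and embryonic myosin, 1 rose and 1 fell, against 5.8% and 5.37% of all genes: the long noncoding RNA H19 rose (0.61 ± 0.095, adjusted p = 0.00306) and the embryonic light chain gene Myl4 fell (-0.43 ± 0.13, adjusted p = 0.0449, and 0.0870 with DESeq2). In females 0 genes of these 6 lists passed by edgeR. Before adjustment, with p under 0.05, the genes above and below 0 numbered 1 and 0 in the sine oculis network, 1 and 1 in its fast-fibre targets, 1 and 1 in the bHLH partners, 4 and 4 in the myogenin and MyoD targets, 1 and 2 in the satellite cell genes and 2 and 4 in the regeneration genes. DESeq2 called 0, 1, 2, 1, 0 and 1 genes of these lists in that order. The shares over all genes were 11.9% unadjusted and 2.99% with DESeq2, and a share near them is no result about a list. The unadjusted counts in the 23 myogenin and MyoD targets and the 9 regeneration genes lay above 11.9%, in both directions. Those lists share genes such as Myh8 and Actc1. Mki67 of the regeneration list spanned 0.110 to 18.8 CPM in female mock libraries, against 0.0845 to 1.16 CPM in female C-del libraries. The part of that mock spread in the counts was not tested.

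**Figure D5:**
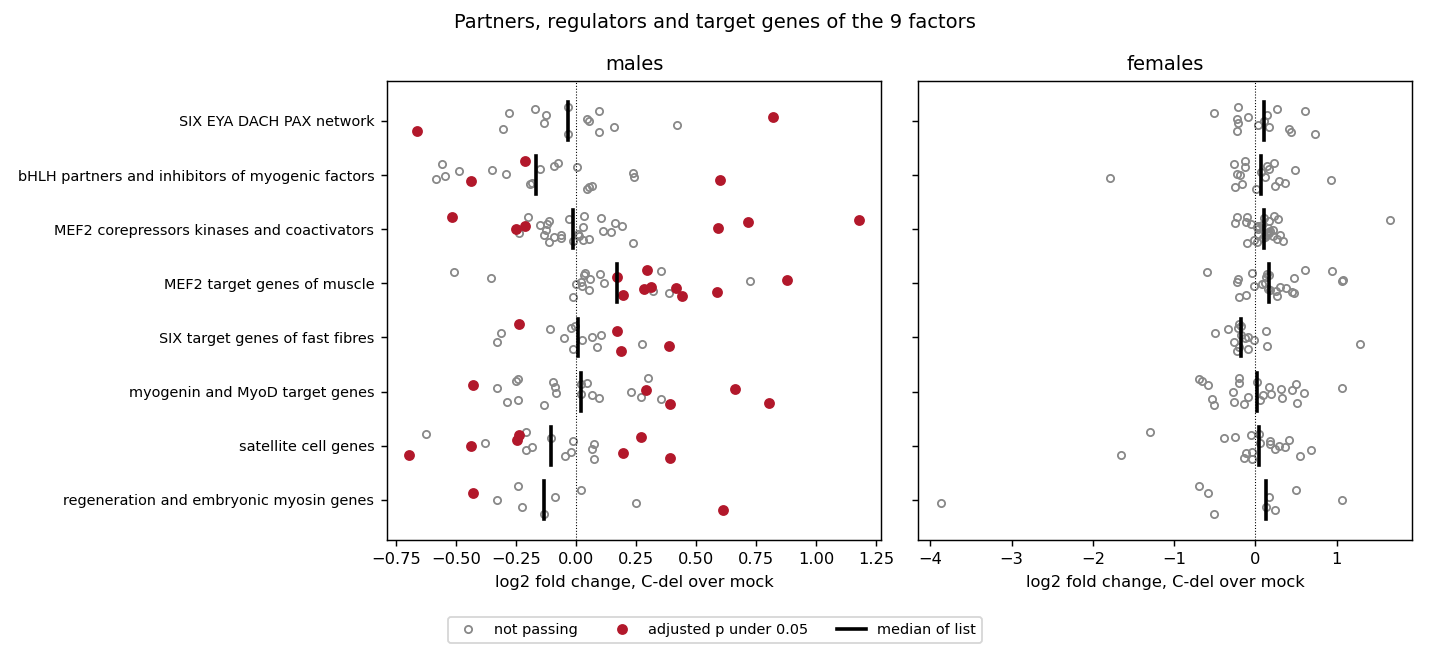
Log2 fold change of C-del over mock for every tested gene of 8 lists in males and in females, with filled points at an adjusted p under 0.05 and a bar at each list's median. MEF2 target genes in males have 9 filled points, all above 0, and females have none in any list.

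Across the 15 libraries, after centring log2(CPM + 1) within each sex, Myod1, Myog and Myf6 ran against Mef2a. Pearson's r was 0.80 between Myod1 and Myf6, 0.75 between Myog and Myf6, 0.72 between Mef2a and Mef2c, -0.73 between Myod1 and Mef2a and -0.72 between Myog and Mef2a. For Myog and Mef2a the value was -0.65 within males alone and -0.89 within females. For Myod1 and Mef2a it was -0.48 within males and -0.95 within females. The points share their library, its depth and its group, so these values only describe the samples. Among 13515 other genes with a mean of at least 1 CPM in each sex, the nearest to Mef2a were Prkce (r = 0.97), Snx27 (0.97) and Ccnyl1 (0.96), and the nearest to Mef2c were D5Ertd579e (0.96), Rassf8 (0.96) and Efr3b (0.94). Gm16062 (0.92), Mrpl4 (0.91) and Smg9 (0.90) came nearest to Myf6, Becn1 (0.89), 9130221H12Rik (0.89) and Gfer (0.88) to Myod1, and Gm13889 (0.87), Wdr92 (0.85) and Irf2bp2 (0.85) to Myog. Mta1 (0.91), the second Mta1 entry (0.91) and Tecpr1 (0.87) came nearest to Mef2d, and Kat2a (0.91), Neto2 (0.86) and Mpped2 (0.85) to Six4. The nearest to Pax7 were Rb1 (0.86), Eif2a (0.85) and Tafa3 (0.83), and those to Myf5 were Ccdc91 (0.83), Trmt61a (0.83) and Capn1 (0.82).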

How the data were processed

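RNA-seq values of 15 libraries were used, deposited by the authors in 1 table per sex. The labels' protocols name a stranded mRNA kit. The authors deposited estimated counts (expected counts) per gene; the submitters' processing notes name featureCounts 2.0.0 and, as the build, GRCm38.p6. Between 14.6% and 17.3% of the values of a library were not whole within 0.001, and 16 of the 135 values of the 9 genes. The sources used here give neither the aligner nor the counting options. Female columns match the sample titles, whereas a male column name shows only its group, and male libraries are numbered by column.

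Values were rounded and tested with edgeR 4.0.16 (robust quasi-likelihood, filterByExpr with a minimum count of 10, TMM) in R 4.3.3 with limma 3.58.1, each sex alone, with Benjamini-Hochberg adjustment over all genes tested and a threshold of 0.05. The average and the female minus male difference came from 1 model over the 15 libraries. The SE was taken as the size of the log2 fold change over the square root of F, and intervals use the t quantile at 95%. An exact permutation test, two-sided by doubling the smaller tail, was run per gene on mean log2(CPM + 1). DESeq2 1.42.0, other scaling, no filter, no robust step, a fit of all groups, a replicate block and left-out libraries were alternatives. Tests were tested on simulated data. No library was a copy of another in its group: chi-square per gene ran from 2.62 to 43.8.

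The plan named RefSeq exon lengths, which were not used here; the exon union of GENCODE M21 replaced them, with its basic transcripts as an alternative added later. Python 3.11.15, pandas 2.3.3, numpy 2.4.6 and matplotlib 3.10.9 read sequences and drew plots. The genes, the lists and the tests were chosen with earlier results of these data known. By the rule for named genes, all 9 genes are given in every library, with the 3 genes most alike in pattern for each, and up to 4 genes of each list that passed in males or in the average, by smallest p. Des, Ppp3ca and Nfatc1, which also passed in males, are named outside that rule. All list names matched an entry.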

Additional observations from a re-analysis of the deposited data

Results flagged for a closer look

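One value of the 9 genes stood apart within its group by Dixon's test of the gap to the nearest library. Myog in male mock library 1 was 7.05 CPM, against 2.82, 2.39 and 2.29 CPM in the other male mock libraries, and the gap was 0.889 of the group's range, over the critical value for 4 samples. Chance flags about 1 group in 20, and 3 groups of 4 libraries were looked at for each of the 9 genes. The Myog result without that library stands in the report, and what sets the library apart was not tested.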

How the results depend on the processing

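The 2 calls in males became 0 in the fit of all 4 groups and 0 without male mock libraries 3 and 4. Earlier results had set those mock libraries apart for tendon genes, although the tenocyte sum of library 4 is the lowest of the male mock libraries. Their fibro-adipogenic sums, given in the report, are the highest of the male libraries. The calls also became 0 without male C-del libraries 1 and 2, set apart for macrophage genes. With 1 library left out the number of calls was 1 to 3, and it was 3 without male mock library 1. Myf6 passed in 6 of 15 alternatives (adjusted p 0.00404 to 0.279, log2 fold change 0.16 to 0.37) and Mef2a in 12 of 15 (adjusted p 0.00156 to 0.338, log2 fold change -0.29 to -0.16). Females had 0 calls throughout. The average had 1 call, Mef2a, without female mock libraries 2 and 3. The difference had 1 call, Mef2c, with DESeq2 and 0 to 3 with 1 library left out; the 3, without female mock library 1, were Myog, Mef2a and Mef2c. The cause of these shifts was not tested.

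Several values that had not passed turned in sign. In males Myf5 was -0.077 without mock libraries 3 and 4 (-0.066 to 0.31 with 1 library left out), and Mef2c was 0.0093 without C-del libraries 1 and 2. In females, without mock libraries 2 and 3, the log2 fold change was 0.20 for Myod1, 1.04 for Myog, 0.0034 for Myf6, -0.23 for Mef2a and -0.14 for Mef2d. With 1 female library left out it ran from -0.23 to 0.10 for Myod1, -0.72 to 0.19 for Myog, -0.20 to 0.066 for Myf6, -0.13 to 0.23 for Mef2a, -0.044 to 0.11 for Mef2d and -0.29 to 0.058 for Pax7; female mock library 3 turned all but Pax7. In the average Mef2d was -0.018 without female mock libraries 2 and 3, and Myf5 ran from -0.15 to 0.035 with 1 library left out. Without those 2 libraries the difference was 0.0042 for Myog and -0.022 for Pax7, and for Mef2d it ran from -0.15 to 0.013 with 1 library left out.

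The number of genes passing in males was 1624, and it was 380 in the fit of all 4 groups and 767 without male mock libraries 3 and 4. The 2 calls in females became 512 with DESeq2, 16 without the filter, 777 in the fit of all 4 groups, 4 without mock libraries 2 and 3 and 1 to 1050 with 1 library left out. The average went from 673 to 1083 with DESeq2 (368 to 2085 with 1 left out), and the difference from 54 to 666 (10 to 1817). Other size factors moved the median of all genes by at most 0.0035 (log2). In the female fit with a replicate block, 0 of the 9 genes passed and Mef2c had a log2 fold change of 0.29 (adjusted p = 0.822); same-numbered libraries deviated with r of -0.17, -0.0046 and -0.066, so the numbers give no sign of pairing. Male libraries are numbered by column, so no paired fit was made in males. Depth limits Myf5 (5 to 20 counts) and Pax7 (12 to 60 counts) most.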
